A study of Mus musculus with 6 samples.

Results

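The 85 genes described here carry the symbols of cytosolic ribosomal proteins and were measured in 6 mouse tumors, of which 3 received vehicle and 3 received TP-18. They were chosen by symbol: every protein-coding gene named Rpl or Rps followed by a number, with or without the letter and number of a named variant, plus the stalk proteins Rplp0, Rplp1 and Rplp2, and Rpsa. The choice took 53 genes of the large subunit and 32 of the small subunit from 23122 annotated genes, 17574 of them protein-coding. The set was put forward with the result of the vehicle and TP-18 comparison already known, so its differences between groups are given as a description without a test of the set.

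All 6 tumors grew from 500000 CT26 cells, a mouse colorectal carcinoma line, injected under the skin of female BALB/c mice aged 6 to 8 weeks. Animals were randomized once tumors reached 100 to 200 mm3, then received either vehicle or TP-18 at 50 mg/kg by mouth each day for 3 weeks. By the series title TP-18 blocks EP2 and EP4, which are prostaglandin E2 receptors. The tumors carry the same cell line and the hosts no stated genetic change, so drug is the sole labelled difference. The labels do not say that each library came from a separate mouse, so p-values measure the spread between these samples, which may be in part technical.

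The cytosolic ribosome joins a small subunit, which holds the mRNA and checks the pairing of codon and anticodon, to a large subunit, which forms the peptide bond. Each protein is normally present as a single copy per ribosome, apart from the paired stalk proteins Rplp1 and Rplp2, which sit on Rplp0 and recruit elongation factors. In mammals most of these mRNAs begin with a C followed by a run of pyrimidines, the 5' terminal oligopyrimidine (TOP) motif, through which mTOR signalling controls their translation and stability. Ribosomal protein genes are usually coordinately transcribed, and MYC is a known activator of many of them. Several have paralogs, such as Rpl22l1 and Rpl39l, that can take the place of the main protein in the ribosome.

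Library totals were 34813482 to 36489081 counts, with 18429 to 18769 genes detected in vehicle tumors and 19278 to 19617 in TP-18 tumors. Whole tumor pieces hold host cells as well as CT26 cells, and in bulk RNA fewer cells of a type and less RNA per cell cannot be told apart. The epithelial markers of a colon carcinoma were scarce in all 6 libraries. Krt18 had a mean of 10.6 CPM (counts scaled to library size) in vehicle tumors and 5.84 in TP-18 tumors, Cdh1 had 1.85 and 4.09, Krt8 had 0.416 and 0.169, Krt19 had 1.12 and 0.0992, and Epcam was at 0 in vehicle tumors 1 and 2. The carcinoma label could therefore not be checked with these markers.

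The sequences around the transcription start are shown first because the TOP motif is the feature that these genes are best known to share. Windows run from 20 bases before to 20 after the start base given by RefSeq for GRCm38.p6, in the 5' to 3' direction of the gene, and capitals mark the pyrimidine run described next. The examples are the genes with the largest differences (Rps18, Rpl22l1), a main gene with its paralog (Rps27, Rps27l) and the genes with the smallest differences (Rplp0, Rpl41, Rpl7l1). Rps18 is at chr17:33955645-33955685 on the minus strand, Rpl22l1 at chr3:28805488-28805528 on the plus strand, and Rps27 at chr3:90213628-90213668 on the minus strand. Rps27l is at chr9:66946066-66946106 on the plus strand, Rplp0 at chr5:115559447-115559487 on the plus strand, Rpl41 at chr10:128549148-128549188 on the minus strand, and Rpl7l1 at chr17:46782636-46782676 on the minus strand. The start used for Rps27l lies inside the annotated span of that gene, which begins further upstream. Where a gene had several annotated starts, the window with the longest run was the one kept.
Rps18: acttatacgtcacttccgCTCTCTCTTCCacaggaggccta
Rpl22l1: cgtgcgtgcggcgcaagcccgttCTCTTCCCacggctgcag
Rps27: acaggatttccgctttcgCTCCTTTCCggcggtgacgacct
Rps27l: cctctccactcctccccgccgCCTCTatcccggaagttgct
Rplp0: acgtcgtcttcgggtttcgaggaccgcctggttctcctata
Rpl41: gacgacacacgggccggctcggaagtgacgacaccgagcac
Rpl7l1: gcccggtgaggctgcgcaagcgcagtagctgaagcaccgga

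A run was defined as a C followed by further C or T bases on the sense strand, at least 5 bases in all, starting within 5 bases of the annotated start. In Rps18 the run has 11 bases and begins 2 bases before the annotated start, and in Rps27 it has 9 bases from the same offset. The table held a promoter for 64 of the 85 genes. Of these, 30 (46.9%) had such a run, against 21.1% of 26961 other genes. In 14 (21.9%), against 2.96%, the start base itself was a C that opened at least 5 such bases. This second count includes runs that begin further upstream and pass through the start base, as in Rps18 and Rps27. Other short motifs were counted over the 300 bases from 250 before to 50 after the start, on both strands. CCGGAAG, a match to the core of ETS family sites, was in 26 promoters (40.6%) against 9.85% of others. ATGGCG, a match to the core of YY1 sites, was in 20 (31.3%) against 10.2%, and TATAAA was in 8 (12.5%) against 15.7%. GGAAG, which lies within CCGGAAG, was in 59 (92.2%) against 73.8% of others. These are matches of letters and depend on the starts that the annotation gives. A gene with several annotated starts was counted if the window of any of them matched, so such genes had more chances to match.

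Compared per length of transcript, these genes were among the most abundant in the tumors. The deposited FPKM (fragments scaled to transcript length and library size), averaged over the 6 libraries, had a median of 1093 over the 85 genes against 6.07 over 14105 other tested genes. Of the 85, 45 reached 1000 FPKM, a level that 25 other tested genes reached. The small subunit genes had a median of 1300 and the large subunit genes 893, with 22 of 32 and 23 of 53 at 1000 or above.

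The highest levels were those of Rplp1, a stalk protein, with 4837 FPKM, and Rpl41, the shortest coding sequence of the set, with 4202. Rpl32 followed at 3554 FPKM, Rpl12, which sits at the base of the stalk, at 3127, and Rpl35, which lies near the exit of the peptide tunnel, at 2960. At the other end Rpl3l, a striated muscle paralog of Rpl3, had 0.0458 FPKM and 1 to 7 counts per library. Rpl32l had 3.50 FPKM, Rpl21 11.9, Rpl29 37.2 and Rpl7l1 37.3. Rpl21 and Rpl29 encode core ribosomal proteins. Of the 100-base stretches of their transcripts, 12.3% and 23.2% recur in transcripts of other annotated genes, 40 and 25 genes respectively, against a median share of 22.8% over the set. Rpl7a, at 1060 FPKM, had 73.5% of them in 37 other genes, and across 82 genes Spearman's rho of FPKM with the shared percentage was 0.15. The treatment of reads that match several genes is not given in the sources used here. FPKM also depends on the transcript length the authors used, which was 5136 bases for Rps15a and 3446 for Rps20 but 346 for Rps27, so levels of single genes can be set by that length.

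The 85 genes held a smaller share of each TP-18 library. In vehicle tumors they took 9.36%, 10.8% and 10.9% of all counts (mean 10.4% ± 0.884, SD, n = 3), and in TP-18 tumors 8.33%, 7.64% and 7.76% (7.91% ± 0.369, SD, n = 3). Every TP-18 library was below every vehicle library, and vehicle tumor 1 was the nearest to the TP-18 group. The difference of the means was -2.47 percentage points. Counted per length, the share of the summed FPKM was 26.5% ± 1.94 in vehicle tumors and 21.5% ± 0.858 in TP-18 tumors.

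**Figure D1:**
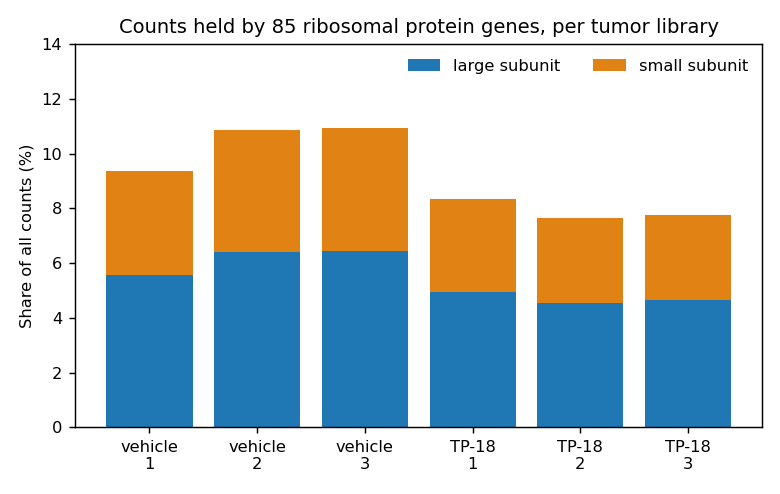
Share of all counts held by the 85 ribosomal protein genes in each tumor library (y axis, percent), split into large and small subunit genes. The 3 TP-18 bars reach 7.64% to 8.33% and the 3 vehicle bars 9.36% to 10.9%, and both subunits are smaller in each TP-18 bar.

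Nearly all of the genes were lower in TP-18 tumors, and by similar amounts. Rpl3l had too few counts, and 84 of the 85 genes entered the edgeR fit with 14105 other genes. The log2 difference, TP-18 minus vehicle, was negative for 83 genes and had a median of -0.56 (quartiles -0.61 and -0.49), a level about 32.1% lower. With an adjusted p under 0.05 by edgeR's quasi-likelihood test, 69 were called lower and 0 higher; at an unadjusted p under 0.05 the numbers were 81 and 0, with DESeq2 80 and 0, and with limma-voom 68 and 0. Over all 14189 genes tested, 5.26% were called lower and 7.09% higher, with a median log2 difference of -0.01. In 82 of the 85 genes every TP-18 library was below every vehicle library, an order found in 17.8% of all genes tested. Among genes of at least 100 CPM, where nearly all of the set lies, the percentages were 15.0% called lower and 36.8% in that order, with the set included. Of 2114 such genes outside the set, 262 were called lower and 728 were in that order. Their median log2 difference was -0.12, and 1528 of them had a negative difference.

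The number of calls depended on single libraries. It was 80 without vehicle tumor 1, 5 without vehicle tumor 2 and 41 without vehicle tumor 3, and it was 22, 11 and 2 without TP-18 tumors 1, 2 and 3. The direction did not depend on them, since 83 or 84 of the 84 genes had a negative difference in each of these fits. Rpl24 and Rpl37a, both of the large subunit and named after their values were seen, were the 2 genes called in all 6 reduced fits. Rpl24 had 833, 970 and 985 CPM in vehicle tumors and 614, 601 and 600 in TP-18 tumors, and Rpl37a had 665, 771 and 699 against 494, 458 and 444.

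**Figure D2:**
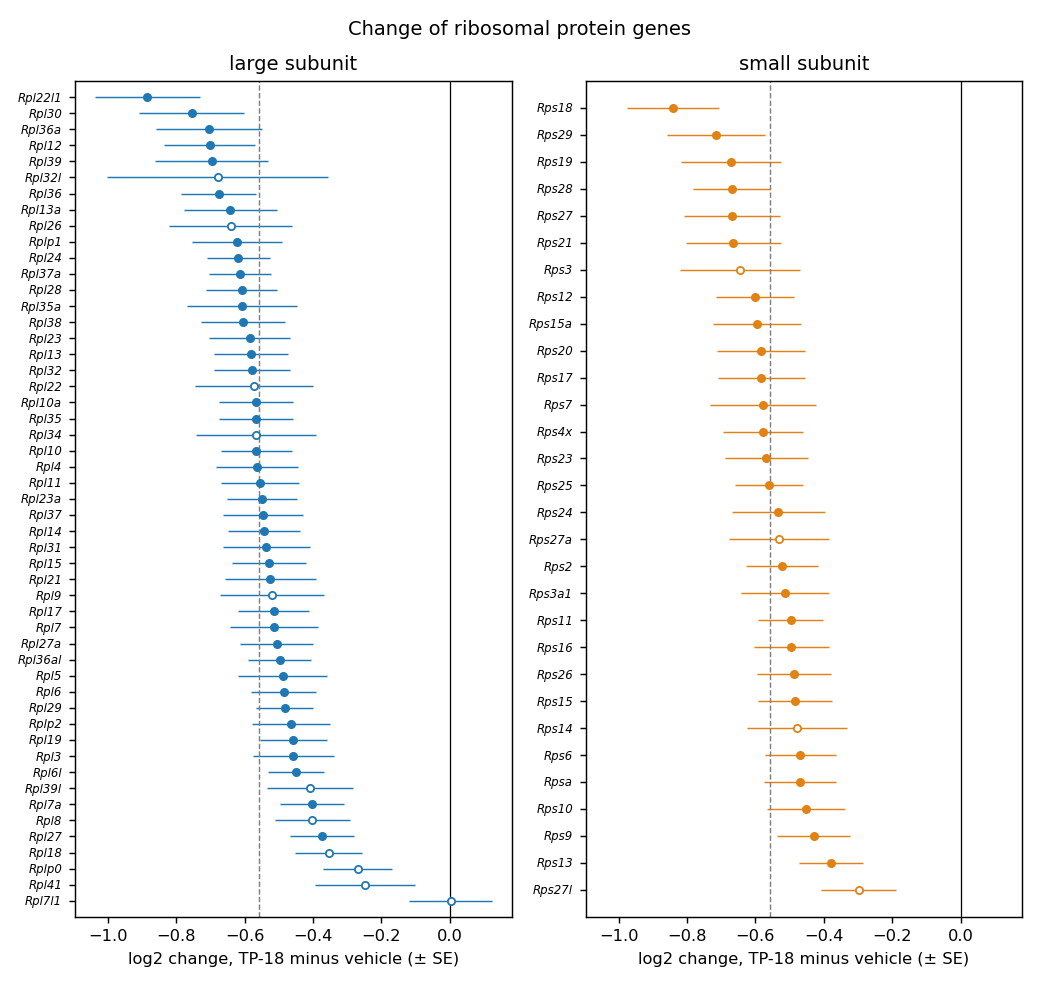
Log2 difference, TP-18 minus vehicle, with its standard error (x axis), for the large and small subunit genes shown. Filled points passed an adjusted p of 0.05 and open points did not, the dashed line is the median of -0.56, and most points lie close to it, with Rpl22l1 and Rps18 to the left and Rplp0, Rpl41 and Rpl7l1 to the right.

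Rpl22l1, a paralog of the RNA-binding large subunit protein Rpl22, had the largest difference. Its levels were 262, 369 and 410 CPM in vehicle tumors and 188, 189 and 187 in TP-18 tumors, a log2 difference of -0.89 ± 0.15 (SE). The 3 TP-18 values were almost equal, with a coefficient of variation (CV, SD over mean) of 0.727%, while the vehicle values had a CV of 22.03%. Rps18, a protein of the small subunit head, had 264, 324 and 387 CPM in vehicle tumors and 183, 191 and 170 in TP-18 tumors (-0.84 ± 0.14). The values of both genes are uncertain in the same way. Of the 100-base stretches of their transcripts, 34.3% for Rpl22l1 and 47.3% for Rps18 recur in other genes, and Gm33051 and Vps52, respectively, overlap them on the other strand. Rpl30, a large subunit protein, had 446 ± 99.1 CPM in vehicle tumors and 265 ± 15.4 CPM with TP-18 (SD, n = 3), a log2 difference of -0.75 ± 0.15.

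Further large differences lay close together. Rps29 of the small subunit differed by -0.71 ± 0.14, the X-linked Rpl36a and Rpl39 of the large subunit by -0.70 ± 0.16 and -0.70 ± 0.17, and Rpl36 by -0.68 ± 0.11. Rpl12 was more abundant by far, with 2043, 2675 and 2798 CPM in vehicle tumors and 1616, 1557 and 1446 in TP-18 tumors (-0.70 ± 0.13). In all of these the groups did not overlap, and each was called. Rpl32l, a gene named as a copy of Rpl32, had a difference of the same size (-0.68 ± 0.32) from 43 to 105 counts per library and was not called.

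**Figure D3:**
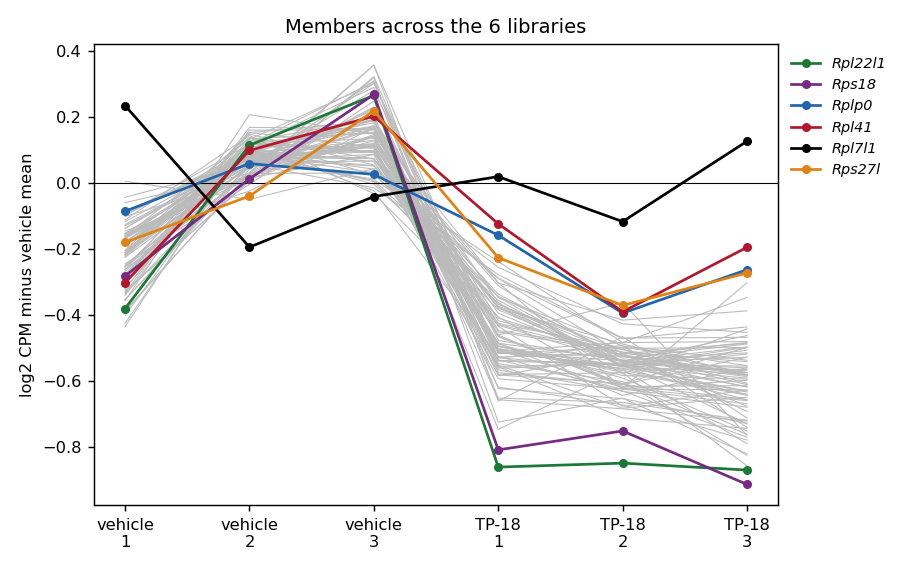
Level of 83 genes in each library as log2 CPM minus the gene's vehicle mean (y axis, log2), with grey lines joining a gene's values and 6 named genes as thick lines. The TP-18 values of the grey lines lie together below the vehicle values, Rpl22l1 and Rps18 lie lowest, and Rpl7l1 stays around 0; the libraries have no order.

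The 15 genes that were not called fell into 2 kinds by their values. In 7 of them the difference was as large as in the called genes and the vehicle libraries varied widely. Rps3, at the mRNA entry of the small subunit and named here after its values were seen, had 2053, 2991 and 3410 CPM in vehicle tumors against 1851, 1806 and 1749 in TP-18 tumors (-0.65 ± 0.18, vehicle CV 24.7%). Rpl22 had 458, 614 and 770 CPM against 421, 417 and 401 (-0.57 ± 0.17, vehicle CV 25.4%). In both the groups did not overlap, and the values of vehicle tumor 1 lay nearest to the TP-18 group. Of all 15 genes, 13 had groups that did not overlap.

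The others, apart from the scarce Rpl32l, had small differences. Rplp0, the stalk base, had 1876, 2073 and 2027 CPM in vehicle tumors and 1784, 1515 and 1659 in TP-18 tumors (-0.27 ± 0.10). The values did not overlap, though vehicle tumor 1 and TP-18 tumor 1 were close. Rpl41, a very short basic peptide, had 1652, 2182 and 2345 CPM against 1870, 1554 and 1780 (-0.25 ± 0.15), and its groups overlapped because vehicle tumor 1 was below 2 TP-18 tumors. Rps27l had 105, 115 and 138 CPM against 101, 91.6 and 98.1 (-0.30 ± 0.11). Rpl18 differed by -0.35 ± 0.10 and Rpl8 by -0.40 ± 0.11, neither of them called, while Rpl27 (-0.37 ± 0.09), Rps13 (-0.38 ± 0.09) and Rpl7a (-0.40 ± 0.09) were called lower with differences of the same order.

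Rpl7l1, a paralog of Rpl7 that is known from ribosome assembly more than from the mature ribosome, was the exception. It had 113, 83.9 and 93.4 CPM in vehicle tumors and 97.3, 88.6 and 105 in TP-18 tumors. The groups overlapped fully and the log2 difference was 0.00 ± 0.12. Left-out libraries moved it between -0.08 and 0.15, so neither direction was resolved. Rpl7, in contrast, was called lower at -0.51 ± 0.13.

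Because most of the genes differed alike, the differences that remain within the family were described by subtracting from each gene's log2 CPM the median deviation of the family in the same library. That median deviation was 0.05, 0.35 and 0.39 in vehicle tumors and -0.21, -0.28 and -0.33 in TP-18 tumors. After the subtraction, 59 of the 84 genes differed between groups by at most 0.1 and 78 by at most 0.2. The genes that stayed relatively high in all 3 TP-18 libraries were Rpl41 (0.30), Rplp0 (0.26), Rps27l (0.25), Rpl27 (0.17), Rps13 (0.16), Rpl8 (0.14) and Rplp2 (0.08). Those relatively low in all 3 included Rpl22l1 (-0.32), Rps18 (-0.29), Rpl12 (-0.15), Rpl36 (-0.13) and Rps12 (-0.06). Rplp0 and Rpl12 touch each other in the ribosome, and stood on opposite sides. This view was chosen after the data were seen. It put 7 of the 84 genes relatively high and 8 relatively low. With 3 libraries per group some genes take such an order by chance, and these numbers were not tested. A ratio within the family shows unequal differences and not which gene kept its level.

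The stalk proteins, which belong to one structure, also differed among themselves. Rplp1 was called lower at -0.62 ± 0.13, with 2312, 2919 and 3104 CPM in vehicle tumors and 1868, 1886 and 1662 in TP-18 tumors. Rplp2 was called lower at -0.46 ± 0.11, with 827, 1018 and 1038 CPM against 752, 679 and 659. Rplp0 was not called at -0.27, as given above. The SE of each is about 0.1, and the difference between the 3 genes was not tested.

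Large and small subunit genes had medians close to each other. The large subunit had 41 of 52 tested genes called lower and a median log2 difference of -0.55, and the small subunit had 28 of 32 and a median of -0.56. The medians lay 0.013 apart, against an SD of 0.137 among large and 0.108 among small subunit genes, and the order of the subunits turned without vehicle tumor 2 (-0.0052). Large subunit genes took 6.15% ± 0.498 of counts in vehicle and 4.72% ± 0.218 in TP-18 tumors (SD, n = 3). Small subunit genes took 4.24% ± 0.386 and 3.19% ± 0.152. The ratio of large to small subunit counts was 1.47, 1.45 and 1.44 in vehicle tumors and 1.47, 1.46 and 1.49 in TP-18 tumors, so the groups overlapped. Per length, large subunit genes made up 59.0% ± 0.0770 of the family's FPKM in vehicle tumors and 59.3% ± 0.271 in TP-18 tumors.

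Paralogs were compared with their partners as a percentage of the partner's FPKM in the same library, which removes the library's scaling. The level such a percentage takes rests on the authors' transcript lengths, while its difference between groups does not. Rpl22l1 was at 274%, 288% and 255% of Rpl22 in vehicle tumors and 214%, 217% and 223% in TP-18 tumors. With lengths of 489 bases for Rpl22l1 and 2343 for Rpl22, the order turned in raw counts, which in vehicle tumors were 9204, 12056 and 13126 for Rpl22l1 and 16104, 20056 and 24651 for Rpl22. The means were 272% ± 16.5 and 218% ± 4.58 (SD, n = 3), and the groups did not overlap. Rps27l, a paralog of the zinc-binding protein Rps27, was at 1.70%, 1.42% and 1.61% in vehicle tumors and 1.97%, 1.85% and 2.31% in TP-18 tumors. This ratio was higher in every TP-18 tumor; Rps27 itself was called lower at -0.67 ± 0.14 and Rps27l was not called. The ratios of these 2 pairs thus differed in opposite directions.

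The other pairs overlapped between groups. Rpl7l1 was at 2.19%, 1.23% and 1.34% of Rpl7 in vehicle tumors and 2.13%, 2.02% and 2.44% in TP-18 tumors, where vehicle tumor 1 lay among the TP-18 values. Rpl36al was at 21.7% ± 2.83 of Rpl36a in vehicle and 24.6% ± 0.828 in TP-18 tumors. Rpl39l, known for its use in male germ cells, was at 8.38% ± 1.00 of Rpl39 and 10.1% ± 1.38. In 4 of the 5 measurable pairs the mean ratio was higher in TP-18 tumors, and vehicle tumor 1 had the highest ratio of the vehicle group in those 4. Rpl3l had 4, 1 and 3 counts in vehicle tumors and 2, 1 and 7 in TP-18 tumors, too few for a ratio. Rpl10l and Rps4l are not analysed here.

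**Figure D4:**
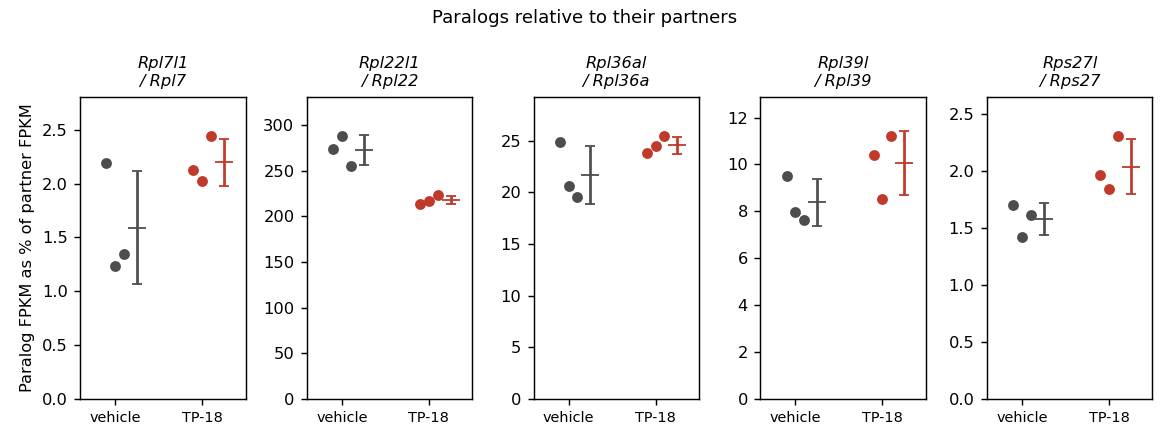
FPKM of 5 paralogs as a percentage of their partner's FPKM (y axis, percent, from 0), with a point per tumor and the mean ± SD beside it. The Rpl22l1 points are lower in all 3 TP-18 tumors, the Rps27l points are higher in all 3, and the points of the other pairs overlap between groups.

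The differences were also set beside the promoter features. The 30 genes with a pyrimidine run near the start had a median log2 difference of -0.55 and the 33 tested genes without it -0.56. In the windows printed above, Rps18 and Rpl22l1 carry runs of 11 and 8 bases, and Rps27l, which differed by -0.30, a run of 5 bases. Genes with CCGGAAG had a median of -0.53 and those without it -0.57. The groups of genes in this paragraph and the next were formed after the data were seen, and no test was made of them.

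Gene length and shared sequence were set beside the differences in the same way. Genes with a coding length of up to 456 bases had a median log2 difference of -0.58 and longer ones -0.52, and across 82 genes Spearman's rho with the coding length was 0.33. With the authors' transcript length rho was 0.36 over 84 members, 0.27 over 2114 other genes of at least 100 CPM and 0.14 over 14105 other genes. These correlations are across genes that share the same 6 libraries, and genes are not independent replicates. In the 16 genes with over 50% of their 100-base stretches in other genes the median was -0.57, with all 16 called lower, and in the 21 tested genes with up to 10% it was -0.53, with 11 called lower. In 39 of the 83 genes that GENCODE M21 held, exons overlap those of another gene, on the opposite strand in 19. The sources used here do not say whether counting used strand. The 45 tested genes without a recorded overlap, among them Rpl6l and Rpl32l, which could not be checked, had a median of -0.55. The genes lie on 19 chromosomes, 14 of them on chromosome 7, and the 4 on the X (Rpl10, Rpl36a, Rpl39 and Rps4x) had a median of -0.64 and were all called lower.

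Vehicle tumors varied more than TP-18 tumors. The median CV over the tested genes of the set was 12.6% in vehicle and 5.79% in TP-18 tumors, and the vehicle value was the larger in 70 of 84 genes. Over all 14189 genes tested the medians were 12.7% and 9.09%. Vehicle tumor 1 was the lowest vehicle library for 82 of the 84 genes, while vehicle tumor 3 was the highest for 58 and vehicle tumor 2 for 25. TP-18 tumor 1 was the highest of its group for 69. The family thus moved together between replicates of a group as well as between groups.

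Other proteins of the cytosolic ribosome that the symbol rule leaves out differed alike. Fau encodes a small subunit protein fused to a ubiquitin-like protein, and Rack1 sits on the small subunit head. Fau had 763, 981 and 1006 CPM in vehicle tumors and 619, 598 and 559 in TP-18 tumors, and was called lower at -0.63 ± 0.12 (adjusted p = 0.0174 by edgeR). Rack1 had 2742, 3499 and 3466 CPM against 2225, 2154 and 2098, and was called lower at -0.58 ± 0.12 (0.0217). With a library left out, Fau was called in 3 of 6 fits and Rack1 in 2.

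Proteins of the mitochondrial ribosome, made in the cytosol for a separate ribosome, differed less. Of 49 tested genes of its large subunit, 3 were called lower (Mrpl2, Mrpl23 and Mrpl30, at -0.39, -0.36 and -0.45) and 0 higher, with a median of -0.12. Of 29 of its small subunit, 2 were called lower (Mrps18b at -0.40 and Mrps30 at -0.33) and 0 higher, with a median of -0.06. Over all genes tested 5.26% were called lower, and 3 of 49 and 2 of 29 are near that share. These 5 calls were made in 1 or 2 of the 6 fits with a library left out. The median over all tested genes other than the ribosomal protein genes was -0.01, and over those of at least 100 CPM it was -0.12.

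A list of elongation factors, some initiation factors and genes of TOP mRNAs lay between these groups. Of 27 tested, 12 were called lower and 0 higher, all 27 had a negative difference and the median was -0.35; DESeq2 called 19 lower and limma-voom 11. Eef1b2, an exchange factor of elongation factor 1, differed by -0.55 ± 0.12 (adjusted p = 0.0248 by edgeR), its partner Eef1d by -0.42 ± 0.09 (0.0218), and the initiation factor 3 subunits Eif3f and Eif3g by -0.44 ± 0.09 (0.0191) and -0.39 ± 0.07 (0.0126). Eif3g had 135, 143 and 139 CPM in vehicle tumors and 107, 108 and 106 in TP-18 tumors. Of the cap-binding and initiation factors, 4 of 20 were called lower and 1 higher, with a median of -0.16. Beside both lists, 5.26% of all genes tested were called lower and 7.09% higher. Among genes of at least 100 CPM, 15.0% were called lower, and 4 of 20 is not far from that share. The binding proteins that hold the cap-binding factor eIF4E inactive moved in opposite directions. Eif4ebp1 had 357, 337 and 376 CPM in vehicle tumors and 239, 242 and 263 in TP-18 tumors (-0.52 ± 0.08, adjusted p = 0.0082 by edgeR). Eif4ebp2 had 30.03, 36.1 and 34.7 CPM against 49.4, 48.3 and 49.8 (0.55 ± 0.09, adjusted p = 0.0109). Eif4ebp1 was called in all 6 fits with a library left out and Eif4ebp2 in 5. Eif1, which guards start codon choice, differed by -0.54 ± 0.11 (0.0211) and Eif2b3 by -0.43 ± 0.09 (0.0235).

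Genes of ribosome assembly and RNA polymerase I, which makes ribosomal RNA, had 9 of 52 called lower and 0 higher, with a median of -0.16. The share called lower was 5.26% over all genes tested and 15.0% among those of at least 100 CPM, and 9 of 52 is near the second. Polr1d, a subunit shared by RNA polymerases I and III, had 95.8, 132 and 123 CPM in vehicle tumors and 74.5, 75.6 and 76.6 in TP-18 tumors (-0.63 ± 0.12, adjusted p = 0.0166 by edgeR). Sbds, which acts in maturation of the large subunit, differed by -0.38 ± 0.07 (0.0175), Utp14a by -0.39 ± 0.09 (0.0275) and Pes1 by -0.30 ± 0.07 (0.0309). Of 17 tested regulators of the MYC and mTOR pathways 1 was called lower and 0 higher, a share near the 5.26% of all genes tested, with a median of -0.01. That gene was Myc, with 267, 220 and 190 CPM in vehicle tumors and 136, 134 and 152 in TP-18 tumors (-0.68 ± 0.13, adjusted p = 0.0163 by edgeR). Within the vehicle group Myc was highest in tumor 1, the library where the ribosomal protein genes were lowest, and any relation between them was not tested. Of 18 proliferation genes, 1 was called higher (Top2a, 0.39 ± 0.10, adjusted p = 0.0381) and 0 lower, with a median of 0.04, beside 7.09% of all genes tested called higher. With a library left out, Myc was called in 3 of 6 fits, Top2a in 2, Polr1d in 2 and Sbds in 3. At an unadjusted p under 0.05 by edgeR, Eif4ebp2 and 3 proliferation genes were the genes of these lists that were higher, and DESeq2 and limma-voom each called Eif4ebp2 and 1 proliferation gene higher.

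**Figure D5:**
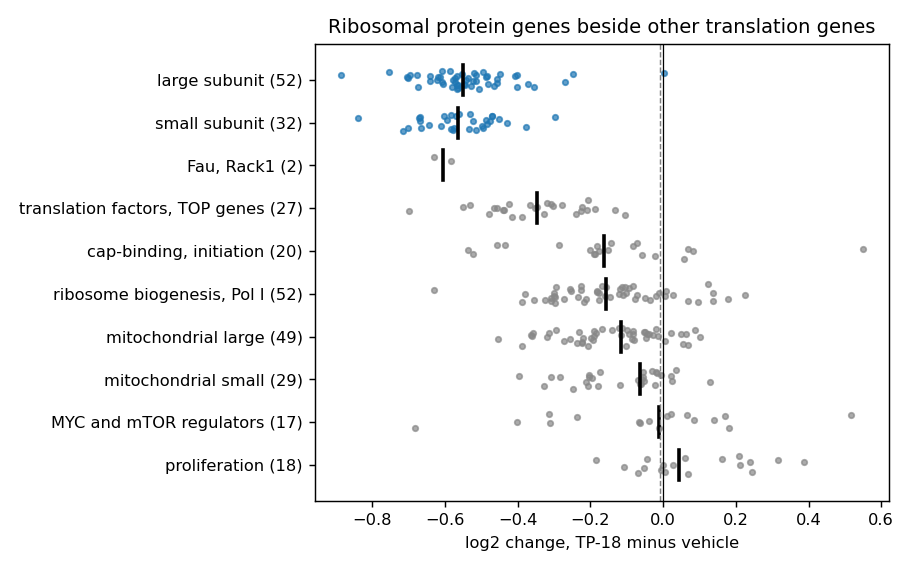
Log2 difference of each tested gene, TP-18 minus vehicle (x axis), for both subunits and for other lists, with black bars at the medians and a dashed line at the median of all genes tested. Both subunits center near -0.56 with Fau and Rack1 close to them, the list of translation factors and TOP genes at -0.35, and the remaining lists between -0.16 and 0.04.

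Markers of host cells moved with the treatment groups, and their part in the ribosomal protein differences was not tested. Summed levels are over all listed genes of a cell type, including those too scarce to be tested. All 10 T cell markers were called higher, with a summed level of 15.5 to 32.2 CPM in vehicle tumors and 86.5 to 94.7 in TP-18 tumors. Of 10 macrophage and monocyte markers 3 were called higher (Adgre1, Mpeg1 and Lyz2; 7 by DESeq2), with 1646 to 2338 CPM against 2978 to 3882. The difference was positive for 8 of these 10 markers and negative for 2, the lowest at -0.64. Of 14 tested skeletal muscle markers 8 were called higher, with 12.8 to 38.9 CPM against 71.7 to 144. Of 3 tested B and plasma cell markers 2 were called higher, Jchain and Mzb1, with 0.375 to 1.28 CPM against 2.93 to 5.42. Jchain and Mzb1 were both at 0 in vehicle tumor 3. Of 5 tested red blood cell markers 4 were called lower (1 by limma-voom), with 66.3 to 395 CPM against 14.8 to 33.9.

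The remaining marker lists had 0 calls by edgeR. At an unadjusted p under 0.05, 1 fibroblast gene (Dcn) and 1 epithelial gene (Krt18) were lower and 1 adipocyte gene (Fabp4) and 1 epithelial gene (Cdh1) higher, limma-voom called 0, and DESeq2 called Dcn and Fabp4 and 4 epithelial genes. Summed levels were 32.1 to 325 CPM in vehicle and 58.1 to 84.7 in TP-18 tumors for 6 neutrophil genes, and 2348 to 6418 against 2662 to 4150 for 7 fibroblast genes. They were 63.7 to 150 against 99.8 to 199 CPM for 6 endothelial genes, 1.39 to 3.28 against 1.48 to 39.5 for 5 keratinocyte genes, and 19.0 to 34.8 against 41.4 to 70.4 for 5 adipocyte genes. The epithelial list, given above, had 9.99 to 19.1 against 9.82 to 11.9 CPM. Heart muscle and germ cell genes were too scarce to be tested, at no more than 0.192 and 0.848 CPM in sum.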

How the data were processed

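RNA from 6 CT26 tumors (3 vehicle, 3 TP-18) was sequenced after TRIzol extraction and library preparation with the VAHTS Universal V6 kit, per the labels' protocols. The sources used here do not say whether polyadenylated RNA was selected or whether counting used strand. The submitters' processing notes name fastp, HISAT2, HTSeq and GRCm38, without versions. The authors deposited raw read counts per gene and FPKM; dividing the deposited counts by the FPKM gave a whole number of bases for all 23122 genes (tolerance 1e-06), taken here as the authors' transcript length. Total counts were 34813482 to 36489081. Counting error weighs most on the scarcest genes, and it was not separated from the spread between tumors.

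The counts were fitted in edgeR 4.0.16 under R 4.3.3: genes kept by filterByExpr (minimum count 10, total 15; 14189 genes), TMM scaling, robust quasi-likelihood F test of TP-18 against vehicle, and Benjamini-Hochberg adjustment over all genes tested, with a call at an adjusted p under 0.05. CPM are TMM-scaled. Levels between genes were compared by FPKM. The test was checked on simulated data, in which genes varied independently and with the same spread in both groups. That check does not cover a family of genes that moves together between replicates. Alternatives used other scalings, filters and moderation, a replicate block, each library left out, DESeq2 1.42.0, limma-voom and limma 3.58.1 on log2 FPKM with a pseudocount of 1 or 0.1. Promoters came from RefSeq (GRCm38.p6), and shared 100-base stretches, coding lengths and exon overlaps from GENCODE M21, which held 83 of the 85 genes.

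The members and lists were chosen with earlier results of these data known. Of the 308 listed symbols 306 matched a gene. Named with values are the 10 genes of largest difference (mean at least 1 CPM), the 5 highest and 5 lowest by FPKM, the 8 nearest no change (mean at least 100 CPM), paralogs with partners, and up to 4 genes per other list by smallest p; others are said to be chosen after their values were seen, or stand in a count. A few genes that this rule names are not reported here. The deposited tables hold no column outside these 6 tumors.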

Additional observations from a re-analysis of the deposited data

How the results depend on the processing

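The direction held in every alternative run: 83 or 84 of the 84 tested genes had a negative difference, and 0 were called higher. The number called lower, 69, was 66 to 80 under other count scalings, filters, moderation, DESeq2, limma-voom and an adjusted p under 0.10. It was 50 by limma on log2 FPKM with either pseudocount and 1 without a filter on low values. With a library left out it was 2 to 80, and with the replicate number as a block 10. The labels state no pairing by replicate number. Deviations from the group means correlated at 0.24, -0.08 and -0.04 for equal numbers 1, 2 and 3, and at -0.28 to 0.31 for unequal numbers. With 3 libraries per group these correlations cannot decide whether the numbers pair the tumors. With the block, all genes gave 547 higher and 231 lower calls, against 1006 and 747.

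The median difference of large subunit genes was -0.40 by FPKM with a pseudocount of 1, 0.1, or 1 without a filter (-0.397, -0.398 and -0.396), and that of small subunit genes -0.411, -0.412 and -0.411. FPKM moved the median of all genes to 0.0956 with a pseudocount of 1 and 0.110 with 0.1. The difference between the subunits was -0.0052 to 0.021 with a library left out. Rpl7l1 turned negative at -0.0019 with scaling that left out the ribosomal protein genes, -0.015 without a filter and -0.0064 by DESeq2. It ranged from -0.084 to 0.15 with a library left out, at -0.013 without vehicle tumor 3, -0.0034 without TP-18 tumor 1 and -0.059 without TP-18 tumor 3. For the 63 named genes, 822 values kept direction and side of the threshold, 282 lost the call and 21 gained it. The cause of these changes was not tested.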

Other observations

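Rows for 16 processed or retrotransposed copies of ribosomal protein genes, which the symbol rule leaves out, held 0.0227%, 0.0302% and 0.0323% of counts in vehicle tumors and 0.0202%, 0.0202% and 0.0196% in TP-18 tumors. Their groups did not overlap, in the same direction as the parent genes. The copy of Rps18, Rps18-ps4, had 926, 1612 and 1969 counts in vehicle tumors and 815, 961 and 818 in TP-18 tumors. Rpl37rt and Rps27rt, named as retrotransposed copies, had 3784, 4632 and 4600 against 3359, 3318 and 3031 counts, and 1436, 1773 and 1782 against 1217, 1142 and 1312. Adding all 16 rows to the family changed its difference in share from -2.47 to -2.48 percentage points. Whether these reads came from the copies or from the parent genes was not tested. The symbol rule kept Rpl6l and Rpl32l, whose genomic spans equal their transcript lengths of 945 and 592 bases, as a copy without introns would have.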
